A study of Mus musculus with 8 samples.

Results

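The imprinted growth genes are a set of 9 named genes (Igf2, Igf2r, Grb10, Dlk1, H19, Meg3, Peg3, Plagl1 and Mest), chosen by name among the 37273 annotated genes of the mouse genome. Each was placed by its GENCODE vM1 position on the mouse build mm9. All 9 were found in the annotation, 7 as protein-coding genes, Meg3 as a long intergenic noncoding RNA (lincRNA) and H19 as a processed transcript. A peak was taken to be at a start site when its centre lay within 1000 bases of the start of an annotated transcript, and to be in the window of a gene when its centre lay in the gene or within 20 kb of it. The 9 windows held 88 of the 164103 ATAC-seq peaks, and these peaks overlapped into 32 of 50683 merged regions.

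Open chromatin was profiled by ATAC-seq, which uses the Tn5 transposase to cut and tag accessible DNA, in bone marrow stromal cells sorted from wild type C57BL/6J mice at post natal 6 weeks. The 7 libraries, titled ATAC1 to ATAC7, share this strain, genotype, tissue and age, and an Input library was the control for all of them. A title is not tied by its label to a sorted cluster of cells, so the titles are used as names. With 1 library for each title, no difference between titles below has a replicate or a test, and the intervals given cover counting error only.

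Imprinted genes are transcribed mainly from a single parental allele, and the choice is carried by DNA methylation of a control region that differs between the maternal and paternal chromosomes. Several of them act on growth before and after birth: paternally expressed genes such as Igf2 tend to promote it, and maternally expressed genes such as Igf2r, Grb10 and H19 tend to restrain it. In stem and progenitor cells of adult tissues, including those of the marrow, members of this network have been linked to quiescence. The mice are inbred and the peak tables carry no allele information, so the parental chromosomes could not be told apart.

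Peak numbers ranged from 15188 in ATAC7 to 32280 in ATAC2, and the library reads in all peaks of a list ranged from 3437628 to 8766021. The total depth of the libraries is unknown. The weakest peaks of the lists held between 21 and 28 reads, so that a gene without a peak was below the calling limit of the authors and cannot be read as closed. The level of a peak is given as library reads multiplied by the scale factor of the library to Input, per 1000 bases of the outer region in which the reads were counted. As start-site peaks in general were higher in some libraries, a relative level is also given, the level divided by the median of the 8238 protein-coding genes called at their start in all 7 libraries, which ranged from 520 in ATAC3 to 1060 in ATAC5. The parent gate of the sort took cells that carried PDGFR-α and Sca-1 and left out those stained for CD31, CD45 or TER119, which mark endothelial, leukocyte and erythroid cells, and further surface markers such as CD24, CD39 and CD54 then divided it into the populations. As a check of the labelled cell type, beside the 42% to 52.7% of all protein-coding genes that had a start-site peak in a library, between 2 and 7 of 12 stromal marker genes had a start-site peak in a library, with Pdgfra, a receptor used to sort these cells, called in 5 libraries and Prrx1, Lepr, Thy1, Eng and Vcam1 in none. Of 9 annotated haematopoietic markers between 2 and 5 had one, with Ptprc, which encodes the CD45 sorted against, called in 4 libraries. Of 8 endothelial markers 4 had a start-site peak in ATAC5, 1 in ATAC6 and 0 in the other libraries, and Pecam1, which encodes CD31, was called in ATAC5. No list thus stood above the share of all genes by more than about a single gene, and most counts stood below it. The endothelial list was below that share in every library and the haematopoietic list in all but ATAC5. The stromal list was below it in all but ATAC2 and ATAC5, and lowest in ATAC3 and ATAC4, with 2 of 12 genes.

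Sequences from the merged regions on which the results turn are shown first, read from the mm9 genome on the plus strand. Capitals mark matches, on either strand, to the hexamer TGCCGC of ZFP57, a zinc finger protein that protects methylation at imprinted control regions, to the core GCCATNTT of YY1, and to the core GGNGGCAG of CTCF, the insulator protein. A match to CTCF can contain the hexamer. Exons and untranslated regions were left out. The first stretch is the part of the Plagl1 start-site region just upstream of the most upstream transcript, and that region was the only one at a start of these genes to be called in all 7 libraries. The peaks of ATAC1, ATAC5 and ATAC6 overlapped the printed bases, the other 4 peaks lay just beyond them, and the outer regions of all 7 reached into them.
Plagl1 start, chr10:12810261-12810496: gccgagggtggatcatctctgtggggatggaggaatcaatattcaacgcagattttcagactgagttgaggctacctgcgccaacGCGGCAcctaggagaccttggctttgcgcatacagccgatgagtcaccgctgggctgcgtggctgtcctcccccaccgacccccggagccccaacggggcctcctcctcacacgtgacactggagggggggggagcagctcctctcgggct
The next stretches lie in the Peg3 intron near its start. Peaks of ATAC4, ATAC5 and ATAC6 overlapped the upper. Peaks of ATAC2 and ATAC6 overlapped the lower, and those of ATAC4 and ATAC7 in the same merged region ended before it, with outer regions that reached into it.
Peg3 intron, upper, chr7:6681140-6681439: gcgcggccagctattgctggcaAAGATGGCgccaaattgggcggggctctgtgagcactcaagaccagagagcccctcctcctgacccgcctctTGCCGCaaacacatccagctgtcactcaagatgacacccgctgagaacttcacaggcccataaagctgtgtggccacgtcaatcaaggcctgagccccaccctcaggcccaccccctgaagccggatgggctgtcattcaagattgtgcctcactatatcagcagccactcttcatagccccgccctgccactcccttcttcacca
Peg3 intron, lower, chr7:6682348-6682647: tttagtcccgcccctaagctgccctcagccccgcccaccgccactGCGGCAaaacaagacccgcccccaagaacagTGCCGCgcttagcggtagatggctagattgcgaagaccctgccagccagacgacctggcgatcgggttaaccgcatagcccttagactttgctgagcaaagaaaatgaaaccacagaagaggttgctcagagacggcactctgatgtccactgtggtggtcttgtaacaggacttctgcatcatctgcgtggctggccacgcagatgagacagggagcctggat
The intron stretch of Igf2r was called in 6 libraries, and the stretch just upstream of the Igf2r start in ATAC1 and ATAC6. They differ in base composition: the intron stretch had 3 CpG and 50.3% GC, and the stretch at the start had 22 CpG and 72.9% GC.
Igf2r intron, chr17:12947347-12947646: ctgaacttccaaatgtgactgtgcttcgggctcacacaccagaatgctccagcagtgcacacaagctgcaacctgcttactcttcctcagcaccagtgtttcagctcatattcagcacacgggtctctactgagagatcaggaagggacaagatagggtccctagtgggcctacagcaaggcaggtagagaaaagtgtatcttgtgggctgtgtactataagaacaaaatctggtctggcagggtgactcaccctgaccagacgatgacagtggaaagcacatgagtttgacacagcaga
Igf2r start, chr17:12962531-12962685: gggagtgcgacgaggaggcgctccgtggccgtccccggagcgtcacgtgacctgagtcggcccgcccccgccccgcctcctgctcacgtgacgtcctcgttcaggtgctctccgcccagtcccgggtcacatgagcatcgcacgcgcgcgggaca
For Grb10, peaks of ATAC1, ATAC2, ATAC5 and ATAC6 overlapped the intron stretch, and peaks of ATAC2, ATAC5 and ATAC6 the stretch beside its internal starts, where the ATAC1 peak of the same merged region lay outside the printed bases.
Grb10 intron, chr11:11865936-11866235: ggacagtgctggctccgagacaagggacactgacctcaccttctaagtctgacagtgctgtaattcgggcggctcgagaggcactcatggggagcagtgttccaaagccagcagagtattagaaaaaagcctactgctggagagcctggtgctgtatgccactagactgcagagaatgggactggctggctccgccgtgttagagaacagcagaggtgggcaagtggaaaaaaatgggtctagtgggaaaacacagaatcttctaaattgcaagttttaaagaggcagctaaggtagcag
Grb10 internal starts, chr11:11925749-11925840: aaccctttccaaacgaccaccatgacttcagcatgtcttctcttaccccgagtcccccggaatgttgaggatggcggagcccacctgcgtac
The last 5 stretches are the CTCF core matches in the H19 control region, where no library had a peak. Only CTCF matches are in capitals there.
H19 CTCF match 1, chr7:149766202-149766233: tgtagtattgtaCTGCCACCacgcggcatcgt
H19 CTCF match 2, chr7:149766657-149766688: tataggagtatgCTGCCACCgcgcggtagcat
H19 CTCF match 3, chr7:149767683-149767714: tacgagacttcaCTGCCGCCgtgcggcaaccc
H19 CTCF match 4, chr7:149767802-149767833: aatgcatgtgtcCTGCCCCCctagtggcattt
H19 CTCF match 5, chr7:149767927-149767958: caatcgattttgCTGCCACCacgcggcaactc

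The motifs were counted in 300 bases around the centre of each merged region. The ZFP57 hexamer occurred in 9 of the 32 regions (28.1%) and in 12.3% of all 50683 regions. The YY1 core occurred in 5 (15.6%) and in 5.11% of all regions, and the CTCF core in 3 (9.38%) and in 14.6% of all regions. Over the whole length of the merged regions, the YY1 core lay only in neighbouring regions at the start of Peg3 and in chr11:11839647-11839901 of Grb10. Its share therefore stands mostly on a single locus. The ZFP57 hexamer contains a CpG, and the shares were not matched for base composition. These are letter matches and not binding sites.

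Of the 9 genes, 5 had a start-site peak in at least 1 library, all of them protein-coding, and 4 (Igf2, Dlk1, H19 and Meg3) had none in any. Among all 22367 protein-coding genes, 56.7% had a start-site peak in at least 1 library, and among 1273 lincRNA genes, the class of Meg3, 57.1% had one. The count of 5 among 7 protein-coding genes therefore stood above the background share by about a single gene. In all 7 libraries at once, only Plagl1 had a start-site peak, whereas 36.8% of protein-coding genes did.

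The number of genes with a start-site peak differed between libraries. It was 3 in ATAC1, where 49% of protein-coding genes had one, and 5 in ATAC2, where 50.2% did. It was 1 in ATAC3 against a background of 43.5%, and 2 in ATAC4 against 43.7%. ATAC5 had 2 against 52.7%, ATAC6 had 4 against 51.5%, and ATAC7 had 2 against 42%. The order of the libraries depended on the setting. With the best 15188 peaks of each list ATAC6 had 4 of the genes and ATAC2 had 3, and with the most upstream start alone ATAC6 had 3 and ATAC2 had 2. Mest, the gene called in ATAC2 alone, had a fold of 2.69. ATAC5, with the highest background share, had 2 of the genes, Grb10 and Plagl1. That count also depended on the setting. With a distance of 2000 bases Peg3 was called in ATAC5 as well, which then had 3 genes, while ATAC3 had 2 and ATAC4 had 3.

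**Figure D1:**
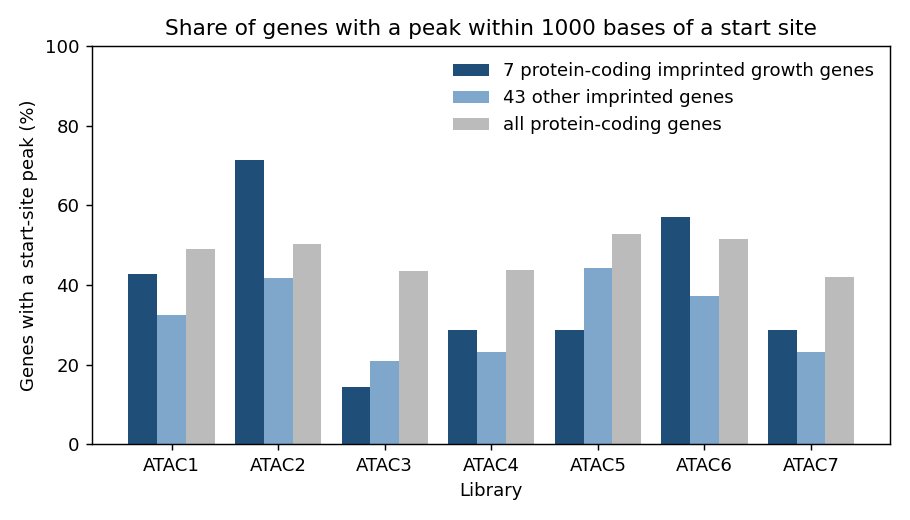
Share of genes with a start-site peak (vertical axis, percent) in each of the 7 libraries, for the 7 protein-coding imprinted growth genes, 43 other imprinted genes and all 22367 protein-coding genes. The bars of the 7 genes stand on 1 to 5 genes, are above the bars of all protein-coding genes in ATAC2 and ATAC6 and are below them in the other 5 libraries.

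In the wider windows, both Peg3 and Plagl1 had a window peak in all 7 libraries, where 53% of protein-coding genes did. In at least 1 library 6 of the 7 protein-coding genes had a window peak, all but Igf2, and 74.4% of all protein-coding genes did. The peaks in the windows numbered 8 for ATAC1, 26 for ATAC2, 4 for ATAC3, 8 for ATAC4, 16 for ATAC5, 22 for ATAC6 and 4 for ATAC7. ATAC2, ATAC5 and ATAC6, which also have the longest lists, gave 72.7% of the peaks in these windows and 56.5% of all peaks. With the same number of peaks taken from each list, the best 15188 by rank, 34 of the 88 peaks (38.6%) were left, against 64.8% of all peaks. Of the 32 merged regions, 17 (53.1%) were called only in ATAC2, ATAC5 or ATAC6, against 47.2% of all regions.

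**Figure D2:**
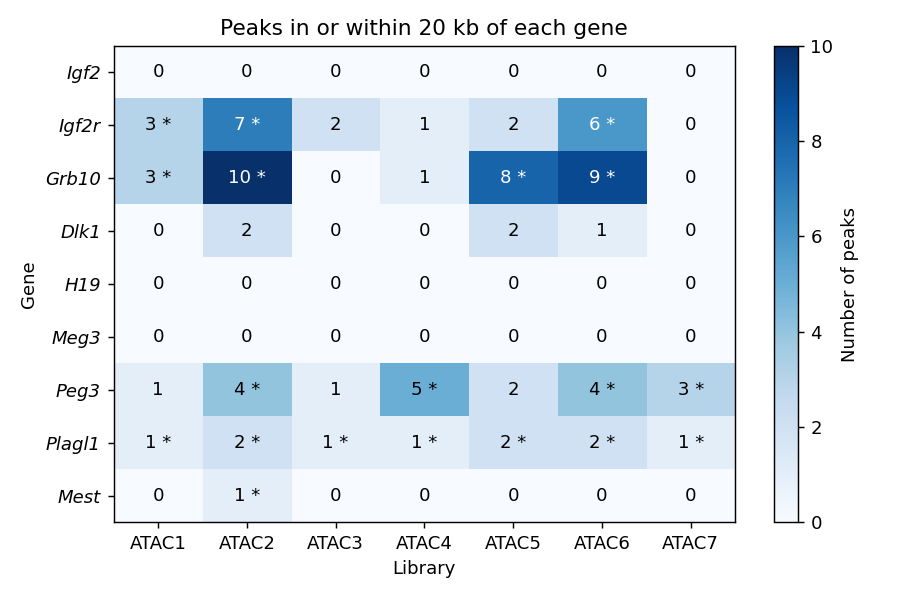
Number of peaks in or within 20 kb of each gene (rows) in each library (columns), with an asterisk where a peak lay within 1000 bases of a start site. Grb10 and Igf2r carry most peaks of ATAC2 and ATAC6, Plagl1 has an asterisk in every library, and Igf2, H19 and Meg3 are at 0 throughout.

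Igf2 (ENSMUSG00000048583.9, chr7:149836673-149852721, minus strand), the growth factor that signals through the type 1 receptor, had 9 annotated start sites and no peak in its window in any library. H19 (ENSMUSG00000000031.9, chr7:149761434-149764048, minus strand), the maternally expressed noncoding RNA of the same domain, had none either. The 2 genes share enhancers and a control region between them, at which CTCF acts as an insulator on the maternal chromosome. In the 72624 bases between the 2 genes there were 2 peaks, 1 in ATAC2 with 59 reads against 18 in Input, and 1 in ATAC6 with 64 against 18. They lay upstream of H19, at 27246 and 27260 bases from its nearest start. In the other 5 libraries the nearest peak lay beyond H19, at the start of Mrpl23, a mitochondrial ribosomal protein gene that was named after its values were seen. Its reads were 155 in ATAC1, 131 in ATAC3, 68 in ATAC4, 56 in ATAC5 and 88 in ATAC7.

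The H19 control region was placed at chr7:149766048-149768548, from 2000 to 4500 bases upstream of the H19 start. It held 5 matches to the CTCF core and 5 to the ZFP57 hexamer, and no library had a peak in it. Mrpl23 was picked because it held the nearest called peak, so its calls are no comparison for the absence of peaks in the imprinted domain.

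Igf2r (ENSMUSG00000023830.7, chr17:12875272-12962530, minus strand), the mannose 6-phosphate receptor that removes IGF2 by internalisation, had 21 window peaks in 10 regions and 6 libraries, all but ATAC7. Its most upstream start, at position 12962530 in a CpG island, was called in ATAC1, with 117 reads against 38 in Input (3.78-fold), and in ATAC6, with 169 against 68 (3.91-fold). The levels there were 446 (369-535, exact 95% Poisson interval) in ATAC1 and 571 (488-664) in ATAC6, with overlapping intervals. ATAC2 had its start-site call elsewhere, at internal starts (chr17:12943631-12943879) with 67 reads against 9. Only the ATAC2 call was at or above a fold of 5. Airn, the antisense noncoding RNA that silences Igf2r on the paternal chromosome, starts in an intron of Igf2r within the control region, and its start was called in ATAC2 alone, with 73 reads against 8 in Input.

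The most widely shared region of Igf2r was not at a start but in an intron, at chr17:12947290-12947702, also within Airn. Its reads and Input reads were 120 and 20 in ATAC1, 105 and 18 in ATAC2, 153 and 22 in ATAC3, 67 and 14 in ATAC4, 92 and 20 in ATAC5, and 94 and 18 in ATAC6. No peak was called in ATAC7. The levels were close to each other, from 304 (258-357) in ATAC3 to 368 (297-452) in ATAC5, and their intervals overlapped. As relative levels they spread more, from 0.342 (0.276-0.418) in ATAC6 to 0.598 (0.464-0.760) in ATAC4. The peak centres lay between 14876 and 15074 bases into the gene from the most upstream start, and the region held no match to any of the 3 motifs. A further intron region at chr17:12950799-12951108 was called in ATAC2, ATAC3 and ATAC6, and another at chr17:12917363-12917817 in ATAC2, ATAC5 and ATAC6 with 107, 221 and 86 reads.

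Grb10 (ENSMUSG00000020176.10, chr11:11830511-11938686, minus strand), an adaptor protein that dampens signalling from the insulin and IGF1 receptors, had the most peaks, 31 in 9 regions and 5 libraries. At its upper promoter, the start at position 11937404, the peaks held 99 reads against 23 in Input in ATAC1, 163 against 34 in ATAC2, 267 against 50 in ATAC5 and 218 against 38 in ATAC6. The levels were 246 (200-300) in ATAC1, 373 (318-435) in ATAC2, 450 (397-507) in ATAC5 and 420 (366-479) in ATAC6. The ATAC1 interval lay below those of the other 3. As a relative level ATAC1, at 0.325 (0.265-0.396), was below ATAC2, at 0.491 (0.419-0.573), and overlapped ATAC5 (0.375-0.478) and ATAC6 (0.354-0.464). ATAC3, ATAC4 and ATAC7 had no peak there.

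Brain transcripts of the paternal allele are known to arise from internal starts of Grb10. Of the internal starts nearest to the upper promoter, those at positions 11926327 and 11927974 lie in CpG islands and that at 11926735 does not. Peaks of the same 4 libraries formed the region chr11:11925624-11926173 beside the first. The peak with the most reads in each library had 49 in ATAC1, 136 in ATAC2, 132 in ATAC5 and 123 in ATAC6. Further into the gene, an intron region at chr11:11865784-11866386 was again called in these 4 libraries, with levels of 284 (224-355) in ATAC1, 363 (297-441) in ATAC2, 619 (535-712) in ATAC5 and 412 (331-507) in ATAC6. ATAC5 was the highest, its interval clear of the other 3, but its relative level of 0.584 (0.505-0.672) overlapped that of ATAC2, 0.478 (0.390-0.580).

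Of the other 6 regions of Grb10, 5 were called only in ATAC2, ATAC5 or ATAC6, and the last, chr11:11839647-11839901, was shared with ATAC4. That peak, with 51 reads against 9 in Input, was the only Grb10 peak of ATAC4. The highest fold of the gene was at chr11:11849155-11849304 in ATAC6, where 87 reads stood against 5 in Input (27.3-fold). With the most upstream annotated start alone, at position 11938686, no library had a start-site call for Grb10.

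**Figure D3:**
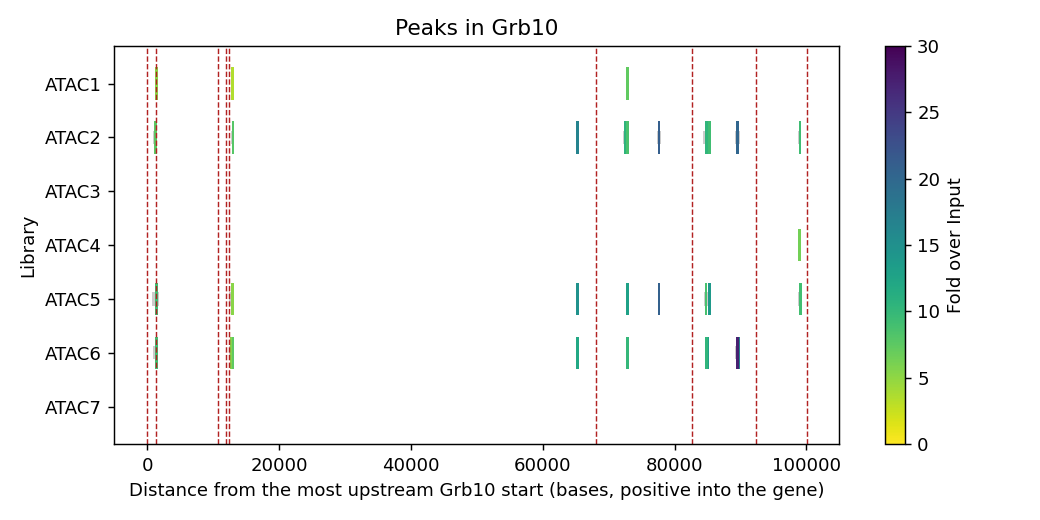
Peaks of the 7 libraries along Grb10, by distance in bases from its most upstream start, coloured by fold over Input; dashed lines mark annotated starts. Peaks stand near the upper promoter and the internal starts in ATAC1, ATAC2, ATAC5 and ATAC6, then again in the distant part of the gene, while ATAC3 and ATAC7 have none and ATAC4 has a single one.

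Dlk1 (ENSMUSG00000040856.11, chr12:110691033-110701546, plus strand), a transmembrane protein that holds back adipocyte differentiation, had no start-site peak, and its 5 window peaks all lay upstream of the gene. The farthest, centred 19947 and 19936 bases upstream, was called in ATAC2 with 104 reads against 23 and in ATAC5 with 85 against 26. The middle one, centred 11306 and 11331 bases upstream, was called in ATAC5 with 60 reads against 31 and in ATAC6 with 83 against 34. The nearest, 2575 bases upstream, was called in ATAC2 alone with 36 reads against 19, rank 31184 of 32280. The farthest peak ranked 14069 in the ATAC2 list, with a fold of 7.14, and 20107 of 31479 in ATAC5, with a fold of 5.60. ATAC1, ATAC3, ATAC4 and ATAC7 had no peak in the window.

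Meg3 (ENSMUSG00000021268.10, chr12:110779211-110809936, plus strand), the maternally expressed noncoding RNA at the other end of the Dlk1 domain, had 10 annotated starts and no window peak. The 77664 bases between Dlk1 and Meg3 held no peak of any library. They include the intergenic control region, placed at chr12:110764211-110771211, with 10 matches to the ZFP57 hexamer. The peak nearest to Meg3 was at least 90674 bases away in every library, the closest being the peak of ATAC2 next to Dlk1. Both noncoding RNAs of the set were thus without a peak in any library.

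Peg3 (ENSMUSG00000002265.8, chr7:6656603-6683132, minus strand), a zinc finger protein expressed from the paternal allele, had 20 window peaks. Of these, 14 formed a cluster over the 3125 bases chr7:6680157-6683281, from just upstream of its start into the long intron that follows. The stretch held 10 matches to the YY1 core, 8 to the ZFP57 hexamer and 1 to the CTCF core. The cluster was called in 6 libraries, with 3 peaks in ATAC2, 1 in ATAC3, 4 in ATAC4, 1 in ATAC5, 3 in ATAC6 and 2 in ATAC7, and not in ATAC1. Libraries differed in which part of the cluster they had, as the map of the Peg3 start shows.

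At the start itself, chr7:6683033-6683281, only ATAC2 had a peak, with 237 reads against 42 in Input, and ATAC6, with 202 against 39. Further in, with centres 752 to 830 bases from the start, peaks that gave start-site calls had 323 reads against 17 in Input in ATAC2, 111 against 11 in ATAC4 and 169 against 13 in ATAC7, and the broader peak of ATAC6, centred 633 bases from it, had 356 against 34. The levels were 859 (768-958) in ATAC2, 340 (279-409) in ATAC4, 643 (578-713) in ATAC6 and 458 (392-533) in ATAC7. Only the intervals of ATAC4 and ATAC7 overlapped. The relative levels were 1.13 (1.01-1.26) in ATAC2, 0.6 (0.494-0.723) in ATAC4, 0.622 (0.559-0.690) in ATAC6 and 0.871 (0.744-1.01) in ATAC7, so that ATAC6 stood beside ATAC4 and below ATAC7, while ATAC2 remained the highest with an interval that just met that of ATAC7. In ATAC2 this peak was in the first 11.5% of its list by rank.

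The peaks with the most reads and the highest folds of the whole set were those of ATAC5 and ATAC6 in the Peg3 intron, centred 1802 and 1846 bases from the start. ATAC5 had 1847 reads against 59 in Input (53.6-fold) and ATAC6 had 1497 against 61 (38.6-fold). Their outer regions were 2732 and 2812 bases long, and the levels were 1158 (1106-1212) and 838 (796-882). ATAC4 had 198 reads against 12 at the same site, a level of 319 (276-367). The order was kept by the relative levels, 1.09 (1.04-1.14) in ATAC5, 0.811 (0.771-0.854) in ATAC6 and 0.563 (0.488-0.647) in ATAC4. The ATAC5 peak was not counted at the start site because of where its centre lay, although its outer region ended 496 bases from the start. With a distance of 2000 bases, Peg3 was called in 6 libraries in place of 4, and with 500 bases in 2, ATAC2 and ATAC6. The outer regions of the ATAC6 peaks overlapped by 650 bases, so that their reads were partly the same.

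**Figure D4:**
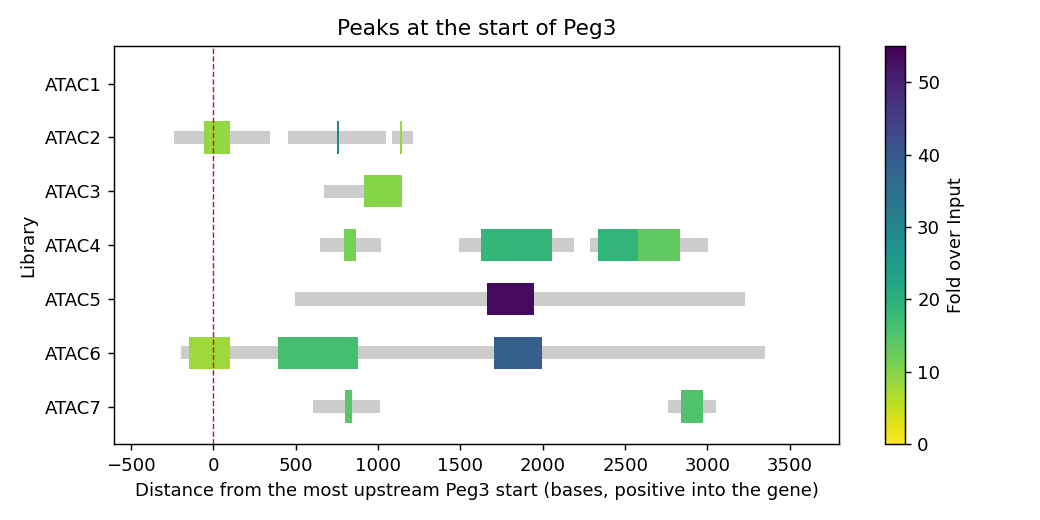
Peaks (coloured blocks) and the outer regions in which reads were counted (grey) at the start of Peg3 in each library, by distance in bases from the most upstream start, with colour for the fold over Input. ATAC1 has no peak, ATAC5 and ATAC6 have their highest folds in the intron, and ATAC2 and ATAC6 alone have a peak on the start itself.

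Downstream of Peg3, within its window, the start of the neighbouring imprinted gene Zim1 was called in 6 libraries. The reads and Input reads were 74 and 24 in ATAC1, 320 and 55 in ATAC2, 63 and 16 in ATAC4, 328 and 45 in ATAC5, 252 and 45 in ATAC6, and 77 and 21 in ATAC7. The levels were 587 (524-654) in ATAC2, 767 (687-855) in ATAC5 and 553 (486-625) in ATAC6, and between 362 and 401 in the other 3. The relative levels were 0.772 in ATAC2, 0.724 in ATAC5, 0.708 in ATAC4 and 0.705 in ATAC7, with overlapping intervals, and 0.535 (0.471-0.605) in ATAC6 and 0.479 (0.376-0.601) in ATAC1, whose intervals still met those of ATAC4 and ATAC7. The single ATAC1 peak in the Peg3 window was this one, and ATAC3, which had a peak in the Peg3 cluster, had none at Zim1.

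Plagl1 (ENSMUSG00000019817.11, chr10:12810497-12851500, plus strand), a zinc finger transcription factor of the imprinted gene network that can halt the cell cycle, had a start-site peak in every library. The peaks held 89 reads against 15 in Input in ATAC1, 238 against 36 in ATAC2, 55 against 10 in ATAC3, 45 against 10 in ATAC4, 206 against 26 in ATAC5, 203 against 39 in ATAC6 and 93 against 12 in ATAC7. The levels were 294 (236-362) for ATAC1, 551 (484-626) for ATAC2, 277 (209-361) for ATAC3, 283 (207-379) for ATAC4, 592 (514-679) for ATAC5, 471 (409-541) for ATAC6 and 294 (237-360) for ATAC7. ATAC2, ATAC5 and ATAC6 were higher, with intervals clear of the other 4, and within each of these 2 sets the neighbours in the order overlapped. The ratio of ATAC5 to ATAC3, the highest to the lowest, was 2.13 (1.58-2.87).

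The Plagl1 peak was below the typical start-site peak in every library. Its relative level was 0.389 (0.312-0.478) for ATAC1, 0.726 (0.636-0.824) for ATAC2, 0.534 (0.402-0.695) for ATAC3, 0.5 (0.365-0.669) for ATAC4, 0.559 (0.485-0.640) for ATAC5, 0.456 (0.396-0.524) for ATAC6 and 0.559 (0.451-0.685) for ATAC7. On that scale ATAC5 and ATAC7 stood at the same value, and the interval of ATAC2 was clear of those of ATAC1 and ATAC6 only, so that the order of the libraries was not that of the levels themselves. In ATAC4 the peak had rank 15587 of 15650, close to the calling limit. With only the best 15188 peaks of each list, Plagl1 was called in 4 libraries, ATAC2, ATAC3, ATAC6 and ATAC7, and no gene of the set was called in all 7. A second Plagl1 region, in an intron at chr10:12826034-12826431, was called in ATAC2 with 73 reads against 10, in ATAC5 with 56 against 4 and in ATAC6 with 73 against 6.

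**Figure D5:**
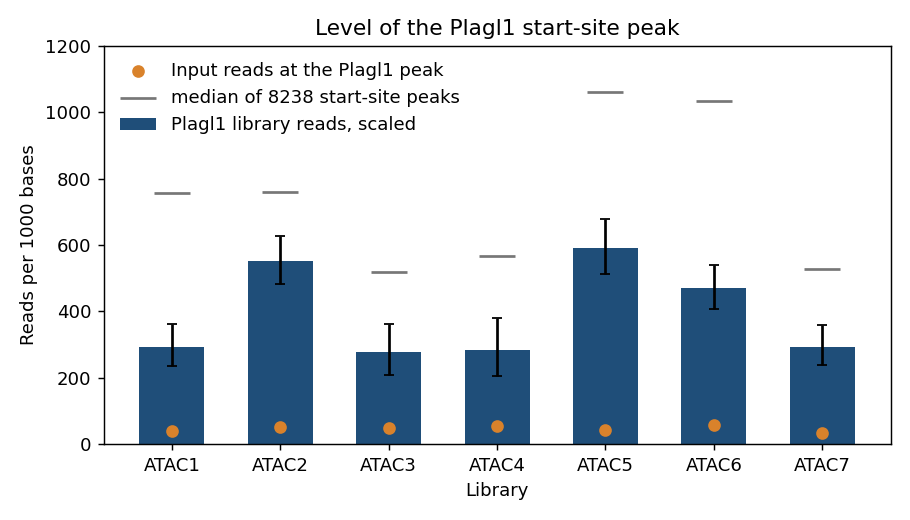
Level of the Plagl1 start-site peak in each library (bars, scaled reads per 1000 bases, with exact 95% Poisson intervals), Input reads per 1000 bases at the same peak (points) and the median level of 8238 genes called in all libraries (lines). The bars of ATAC2, ATAC5 and ATAC6 are the highest, every bar is below its line and every point is far below its bar.

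The genes whose pattern over the 7 libraries was most like that of Plagl1, on log2 levels with the median of each library subtracted, were Kctd15, with a Pearson r of 0.988, and Fbxl12, with 0.986. Of 8237 genes compared, 63 had an r above 0.9. The points share libraries and a single Input, and the values are given as a description.

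Mest (ENSMUSG00000051855.8, chr6:30673547-30698457, plus strand), a paternally expressed enzyme of the hydrolase fold, had 1 peak in 1 library. It lay in ATAC2 at chr6:30688092-30688305, beside the starts in its CpG island, with 87 reads against 51 in Input, or 2.69-fold. Its level was 343 (275-423), and Input itself was high there, at 127 reads per 1000 bases. In the other 6 libraries the nearest peak was 29697 to 29761 bases away, at the start of Tsga14, which was named after its values were seen, with 118 to 465 reads. Copg2, the imprinted neighbour on the other side, had a start-site peak in all 7 libraries.

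Control regions were placed from the annotation and from CpG islands of the genome, and never from the peaks. There were 11, of which 5 had a peak in at least 1 library, with 17 of 77 possible calls. The 11 include 3 short CpG islands inside Grb10 that were taken by the placing rule alone. The counts are thus not counts over established control regions. For scale, 56.7% of protein-coding genes had a start-site peak in at least 1 library and 42% to 52.7% in a given one, but the regions differ in length and not all of them lie at a start, so the shares are not like for like. Those of Plagl1 were called in all 7 libraries, those at the Peg3 start in ATAC2, ATAC4, ATAC6 and ATAC7, and those at the internal starts of Grb10 in ATAC1, ATAC2, ATAC5 and ATAC6. The Mest and Airn regions were called in ATAC2 only. The H19 region, the intergenic region of Dlk1 and Meg3, the Meg3 start and 3 further CpG islands inside Grb10 had no call. The 5 called regions were placed at annotated starts by definition, and so was the Meg3 start, which had no call. The H19 and intergenic regions were placed away from starts. Whether position at a start matters was not tested.

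A wider list of other imprinted genes was counted in the same way. Of 46 genes listed, 43 were annotated; 8 (18.6%) had a start-site peak in all 7 libraries and 23 (53.5%) in at least 1, against the 36.8% and 56.7% given above. The counts were 14 for ATAC1, 18 for ATAC2, 9 for ATAC3, 10 for ATAC4, 19 for ATAC5, 16 for ATAC6 and 10 for ATAC7. ATAC5 had the highest count and ATAC3 the lowest. Airn and Zim1 are in this list, and their peaks are those described in the windows of Igf2r and Peg3.

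Genes that act beside Igf2, Igf2r and Grb10 in insulin-like growth factor signalling were listed as well. Of 28 listed genes, 11 (39.3%) had a start-site peak in all 7 libraries and 18 (64.3%) in at least 1, with 14 to 16 in each library. These shares were near the 36.8% and 56.7% of all protein-coding genes. The receptors Igf1r and Insr and the adaptors Irs2, Grb2 and Shc1 were called in all 7, and Irs1 in 6. The ligands Igf1, Ins1 and Ins2 were without a start-site call throughout, as Igf2 was.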

How the data were processed

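Peak tables of 7 ATAC-seq libraries were used; the authors aligned reads to mm9 with bowtie and called peaks per library against Input with the two-sample mode of CisGenome, keeping peaks under an FDR limit. The submitters' processing notes also name DiffBind and bedtools; the versions of bowtie and DiffBind, a Tn5 shift and duplicate removal are not given in the sources used here. The deposited tables, which have no header, hold whole-number counts of library and Input reads in the outer region, the rank of each peak as a score by the authors, and the authors' fold, a ratio of scaled library reads to Input reads plus 0.01. An absent shift could displace the edges of a peak slightly, and duplicates would raise a count. The scale factor of each library, from 1.01 to 1.71, was recovered from these columns, and it varied by at most 0.0477% within a library.

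Peaks were joined to GENCODE vM1 on NCBIM37, the mm9 assembly. Peaks sharing at least 1 base were merged. CpG islands had at least 200 bases, 50% GC and an observed over expected CpG of 0.6. Reads have exact 95% Poisson intervals; the interval of a ratio is log-normal. There are no replicates and no tests. The genes and the lists (other imprinted genes, insulin-like growth factor pathway, regulators of imprinting, stromal, haematopoietic and endothelial markers) were chosen with earlier results of these data known. Named are the 9 genes, other genes whose start lies within 1000 bases of a peak in their windows, and genes of the lists. The 2 genes most like a gene called in all 7 libraries are named as well. Outside this rule, Mrpl23 and Tsga14 were named after their values were seen, as holders of the nearest peak. Listed genes not matched by symbol were not used here. Gene assignment and merging were tested on simulated data. Python 3.11.15, numpy 2.4.6, pandas 2.3.3, scipy 1.17.1, pysam 0.24.0 and matplotlib 3.10.9 were used.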

Additional observations from a re-analysis of the deposited data

How the results depend on the processing

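With the best 15188 peaks of each list, the genes called at their start in all 7 libraries fell from 1 to 0. The window peaks fell from 88 to 34, the merged regions from 32 to 15 and the control region calls from 17 to 9. This setting kept 38.6% of the window peaks and 64.8% of all peaks. The 19 start-site calls of the 9 genes became 13 and the 96 calls of the other imprinted genes 69. The other settings (distances of 500 and 2000 bases, any base of a peak, the most upstream start, a fold of at least 5, flanks of 5 and 50 kb, joining within 500 bases, outer regions, starts counted from 0, control regions widened by 1000 bases) moved these counts by less than 1.5 times. Start-site calls were 13 with the most upstream start, where Grb10 and Mest lost theirs and Igf2r lost that of ATAC2, and 16 at a fold of at least 5, where Mest and 2 of the 3 Igf2r calls were lost. Without division by length, the ratio of ATAC5 to ATAC3 at Plagl1 was 6.36 in place of 2.13 and that of ATAC2 to ATAC4 at Peg3 was 4.06 in place of 2.53, by construction, because outer regions differ in length. With the authors' fold, the ratio of ATAC2 to ATAC1 at Grb10, whose best peaks lie at different starts, was 1.505 in place of 1.97. No paired analysis was possible because there is only 1 library for every title. Depth limits every absence: a peak not called may be a weak peak.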

Other observations

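Of 20 listed regulators of imprinting, 11 (55%) were called in all 7 libraries and 17 (85%) in at least 1, with 12 to 15 in each library. Among all protein-coding genes the shares were 36.8% and 56.7%. Among those in all 7 were Dnmt1 and Uhrf1, which maintain DNA methylation, Dnmt3a and Dnmt3b, which set it, Ctcf and Yy1. Zfp57 was called in ATAC5 only and Trim28, the corepressor it recruits, in 6 libraries. Ctcfl, Dppa3 and Zfp445 were not called in any.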
